A study of Arabidopsis thaliana with 12 samples.

Results

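A set of 6 nuclear genes for nucleic-acid-binding protein families of plant organelles was followed in a plastid protein import mutant: 3 pentatricopeptide repeat (PPR) genes (AT3G13150, AT4G04370 and AT2G19280), the mTERF gene AT3G46950, and the RNA recognition motif (RRM) genes AT1G01080 and AT2G37510. They are 6 of the 691 loci that a probe of the array named alone, and each was read by 1 probe. The genes were picked by locus with results of the same comparison already known, so their differences between genotypes are given as a description. Their p-values are left out, and whether a gene passed a threshold in a fit is stated only to describe that fit. Their families were assigned when they were picked. The probe and gene tables name them by locus only, so neither family nor organelle was checked here, and whether any of the 6 proteins goes to plastids or to mitochondria is not stated.

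Total RNA of Arabidopsis thaliana, ecotype Wassilevskija, was hybridised to 12 single-channel arrays, 6 of wild type (WT) and 6 of the toc160 mutant in the same ecotype. The mutant imports proteins poorly across the outer envelope of its chloroplasts, per the labels. Toc160 is an earlier name of Toc159, an import receptor for plastid precursors. The labels give no allele, tissue, age, growth condition or light regime. They also do not say whether replicates 1 to 6 of a group came from separate plants, so any p-value measures only the spread between these samples, which may be technical.

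PPR proteins are chains of short helical repeats that bind single-stranded RNA base by base, and in plant organelles they guide RNA editing, splicing, processing and stabilisation. mTERF proteins are also helical-repeat proteins of mitochondria and plastids, where members act in transcription termination, splicing and ribosome assembly. RRM proteins fold into a small domain that binds RNA. Those of plastids include abundant ribonucleoproteins that protect transcripts and assist editing, while many other RRM proteins work in the nucleus and cytosol. Nuclear genes encode nearly all of these proteins, and the plastid members must be imported before they can act on plastid transcripts.

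Facts common to all probes touch every value below. The deposited intensities were linear, and their median per array was 0.477 to 0.551 in WT and 0.627 to 0.646 in toc160, with sums of 3612 to 3681 and 3720 to 3815. All loci thus had a median log2 difference of 0.33 in the deposited values, which quantile normalization reduced to 0.03. Arrays of replicates 1 and 2, 3 and 4, and 5 and 6 of a group were close to duplicates. Their Spearman correlations were 0.983 to 0.990, against 0.871 to 0.945 for other arrays of a group. They are therefore described below as 3 replicate pairs. The fit of 6 arrays against 6 nevertheless counts near-duplicates as separate arrays and leaves out the pairing. Its SEs, intervals and calls can thus overstate the precision, and the pair-blocked interval is given for each of the 6 genes as well. Probes of different genes were not compared in level, since a probe's brightness also depends on the probe.

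**Figure D1:**
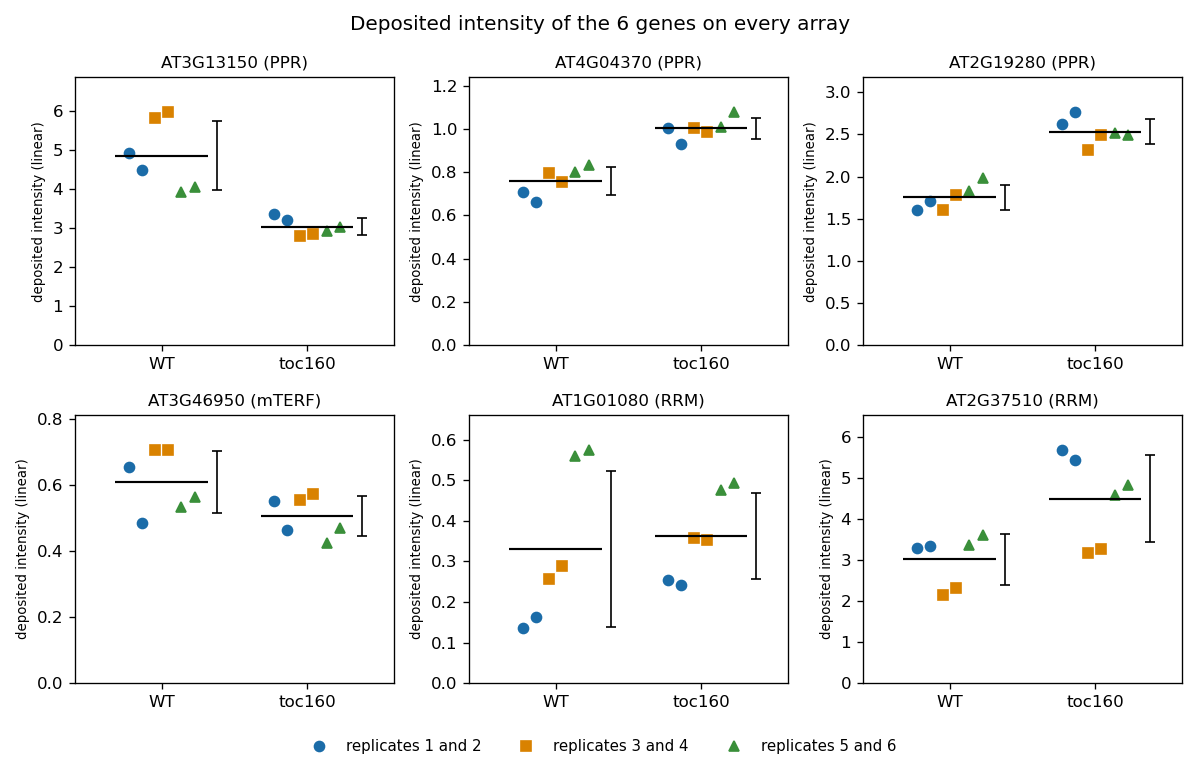
Deposited intensity (linear scale) of the 6 genes on each of the 12 arrays; marker and colour give the replicate pair, horizontal lines are the mean of 6 arrays, and error bars are ±1 SD (n = 6). AT3G13150 (lower) and AT4G04370 and AT2G19280 (higher in toc160) have groups that do not overlap, and AT1G01080 differs more between pairs than between genotypes. Of all loci, 2.60% do not overlap with toc160 lower and 17.8% with toc160 higher.

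The 6 genes did not move one way in toc160. In RNA from whole samples, fewer cells that express a gene and less of its RNA per cell cannot be told apart. After quantile normalization 3 were higher in toc160 (AT4G04370, AT2G19280 and AT2G37510) and 3 were lower (AT3G13150, AT3G46950 and AT1G01080). Their median log2 difference was 0.01, against 0.03 over all 691 loci. In the fit of 6 arrays against 6, 5 of the 6 passed a limma adjusted p of 0.05, where 10.4% of all loci did. Of the 5, 3 were higher, as were 4.92% of all loci, and 2 were lower, as were 5.50%. Because the genes were picked on this comparison, nothing is read from that count. Counting each near-duplicate pair once and blocking by pair, 1 of the 6 passed (AT3G46950, lower), where 1.74% of all loci passed and 1.45% passed lower. The pair-blocked outcome depended on the loci fitted and on the scaling. Without the dimmest 25% of loci, 4 of the 6 passed (AT3G13150, AT2G19280, AT3G46950 and AT2G37510), where 21.4% of the 518 remaining loci did. That fit draws each locus's variance towards a common one, with 27.4 prior degrees of freedom against 0.844 over all loci. The full set of loci includes 52 with deposited values of exactly 0. Some of them, such as AT1G07970, were at 0 on every array and could not pass. The pair block called 4 as deposited (all but AT3G13150 and AT1G01080), 2 with median centring (AT3G13150 and AT3G46950) and 1 with cyclic loess (AT3G46950), where 37.0%, 10.1% and 3.04% of all loci passed. With the replicate number as a block, 4 passed (AT3G13150 did not), where 28.4% of all loci passed.

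Among the PPR genes, AT3G13150 was lower in the mutant. Its deposited intensity was 3.93 at the lowest, 4.70 at the median and 5.97 at the highest in WT, and 2.80, 2.98 and 3.38 in toc160. Every toc160 array lay below every WT array. After normalization the ranges touched, with the highest toc160 log2 value at 1.91 and the lowest WT value at 1.90. Non-overlap of this kind was seen for 20.4% of all loci in the deposited values, mostly with toc160 higher (17.8%) and for 2.60% with toc160 lower. The WT mean was 4.86 ± 0.966 and the toc160 mean 3.03 ± 0.233 (SD over 3 pair averages). The normalized log2 difference was -0.49 (SE 0.12, 95% interval -0.75 to -0.22, 6 arrays a group).

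The size of the AT3G13150 difference depended on the pair. The WT level was highest in replicates 3 and 4 (5.90), the pair in which the toc160 level was lowest (2.83), and the log2 ratios were -0.25, -0.97 and -0.23 in the 3 pairs in order. The direction was thus the same in each, with the middle pair standing apart. Without replicates 3 and 4 the log2 difference was -0.24 and did not pass. Nor did it pass on leaving out toc160 replicate 3, 4 or 6 alone, at -0.44, -0.45 and -0.49. With pairs averaged and blocked the interval ran from -1.16 to 0.19 and the call was lost over all loci, but not without the dimmest 25% or with median centring.

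AT4G04370, the second PPR gene, was higher in toc160 as deposited. Its intensity was 0.663, 0.775 and 0.834 (lowest, median, highest) in WT and 0.932, 1.003 and 1.08 in toc160. The groups did not overlap, in deposited or in normalized values. With toc160 higher this held for 17.8% of all loci as deposited and for 3.62% after normalization. The deposited log2 difference of 0.40 was close to the 0.33 by which the median locus was higher, and after quantile normalization 0.14 remained (SE 0.03, interval 0.07 to 0.20). In the 3 pairs the normalized log2 ratios were 0.17, 0.08 and 0.17. This gene had the smallest normalized difference of the 5 that passed, with the smallest SE of the 6. It did not pass with median centring (0.08), with cyclic loess (0.12) or with pairs averaged and blocked (0.14, interval 0.02 to 0.25; 0.40 with a call as deposited), nor on leaving out replicates 1 and 2 or 5 and 6 of both genotypes (0.12 for each).

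The third PPR gene, AT2G19280, was higher in toc160 by a wider margin. Its intensity was 1.61, 1.75 and 1.98 in WT and 2.31, 2.51 and 2.76 in toc160, with no overlap there or after normalization. With toc160 higher, 17.8% of all loci did not overlap as deposited and 3.62% after normalization. The mean went from 1.75 ± 0.134 to 2.53 ± 0.146 (SD over 3 pair averages). Its normalized log2 difference was 0.54 (SE 0.07, interval 0.39 to 0.69). The pairs gave 0.68, 0.41 and 0.53, so each of them showed the gene higher. With median centring the difference was 0.21, without a call. In the pair-blocked fit the interval was 0.31 to 0.77, without a call over all loci but with one as deposited or without the dimmest 25%.

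The mTERF gene AT3G46950 was lower in toc160. Its deposited intensity was 0.484, 0.611 and 0.706 in WT and 0.424, 0.512 and 0.574 in toc160, and these ranges overlapped. After normalization they did not, and the same held for 7.81% of all loci, 4.20% with toc160 lower. Within each pair the WT average was the higher one, at 0.570 against 0.508, 0.706 against 0.564 and 0.550 against 0.447. The normalized log2 difference was -0.59 (SE 0.12, interval -0.85 to -0.32).

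The pairs agreed closely for AT3G46950, with log2 ratios of -0.57, -0.61 and -0.58. The interval of the pair-blocked fit was accordingly narrow, -0.67 to -0.50. The difference was -0.59 with median centring and -0.60 with cyclic loess. In the deposited values, where most loci were higher in toc160, it was -0.26, which passed with the pair block but not without it. The gene also did not pass on leaving out replicates 1 and 2 (-0.60) or 3 and 4 (-0.56).

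Of the RRM genes, AT2G37510 had the largest difference of the 6 after quantile normalization. Its intensity was 2.15, 3.32 and 3.61 in WT and 3.17, 4.72 and 5.69 in toc160. The deposited ranges overlapped because both genotypes were low in replicates 3 and 4, at 2.23 in WT and 3.22 in toc160. In the other pairs the averages were 3.32 and 3.49 in WT and 5.56 and 4.72 in toc160. Within each pair the toc160 level was thus the higher one. After normalization the ranges no longer overlapped (log2 values of at most 1.74 in WT and at least 1.77 in toc160). The same held, with toc160 higher, for 3.62% of all loci.

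The normalized log2 difference of AT2G37510 was 0.71 (SE 0.17, interval 0.35 to 1.08), with 0.86, 0.67 and 0.61 in the pairs. Blocking by pair narrowed the interval to 0.49 to 0.93, without a call over all loci but with one as deposited or without the dimmest 25%. With median centring the difference was 0.24, and with cyclic loess 0.58, neither passing. The call was also lost without replicates 1 and 2 (0.61) or 5 and 6 (0.79).

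AT1G01080, the other RRM gene, showed no difference between genotypes beyond its spread. Its intensity was 0.136, 0.272 and 0.574 in WT and 0.241, 0.354 and 0.494 in toc160, so the toc160 range lay inside that of WT. The normalized log2 difference was -0.12 with an interval of -0.83 to 0.59, or -0.70 to 0.46 with pairs averaged and blocked. Both leave room for a change of either sign. As deposited the difference was 0.30, and without WT replicate 5 or 6 it was 0.05. The pair ratios were 0.21, -0.05 and -0.51.

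**Figure D2:**
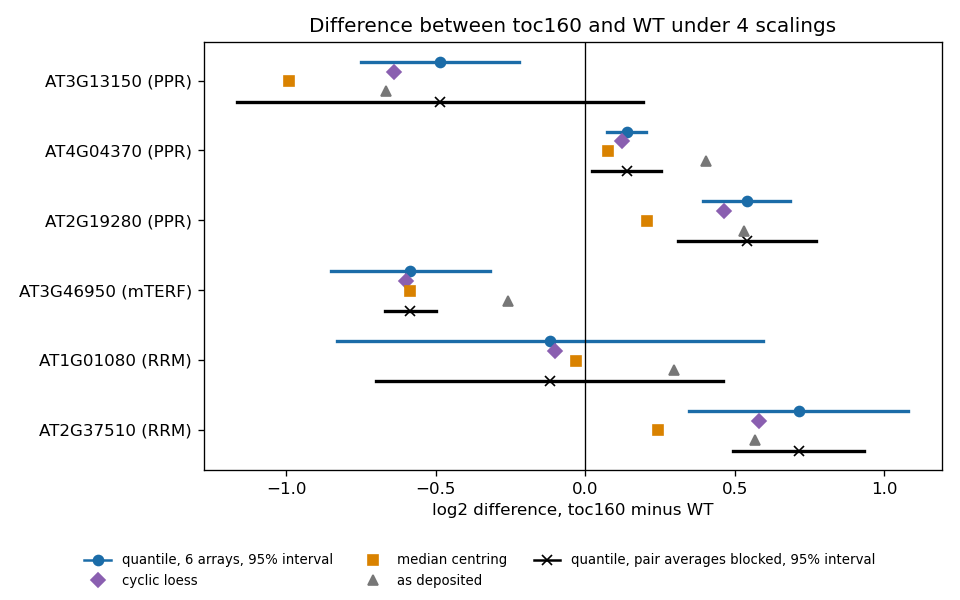
Log2 difference (toc160 minus WT) of the 6 genes under 4 ways of scaling the arrays; blue lines are 95% intervals of the fit of 6 arrays against 6, and black lines those of the fit that averages each pair and blocks by it. The point estimates of AT3G13150 and AT3G46950 lie below 0 and those of AT4G04370, AT2G19280 and AT2G37510 above 0 under all 4, while both intervals of AT1G01080 and the pair-blocked one of AT3G13150 span 0.

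Scaling set the size of most differences but not the direction of 5 of the genes. The log2 difference of AT3G13150 was -0.49 after quantile normalization, -0.64 with cyclic loess, -0.66 as deposited and -0.99 with median centring, and passed under each of them in the fit of 6 arrays against 6. AT3G46950 passed under all but the deposited scale. Of the genes that were higher, AT2G19280 passed under all but median centring, and AT4G04370 and AT2G37510 passed after quantile normalization and as deposited. With median centring 2 of the 6 genes passed, both lower, where 15.3% of all loci passed and 11.7% passed lower. As deposited 4 passed, 3 higher and 1 lower, where 42.3% of all loci passed, 38.5% higher and 3.76% lower. With cyclic loess 3 of the 6 passed, and 9.41% of all loci. The share of higher calls among all called loci was 47.2% after quantile normalization, 91.1% as deposited, 23.6% with median centring and 41.5% with cyclic loess.

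**Figure D3:**
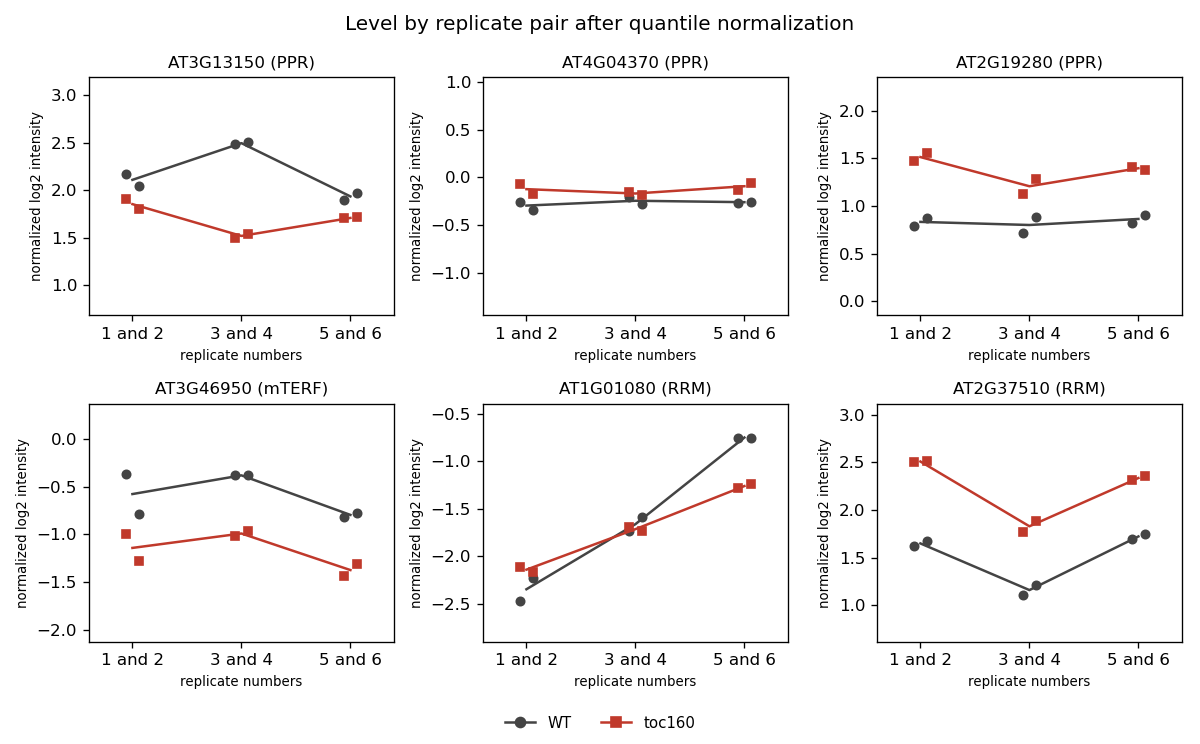
Normalized log2 intensity of the 6 genes on each array (points) by replicate pair, with lines through the pair averages of WT and toc160; every panel spans 2.5 log2 units. The lines of AT3G46950 run nearly parallel, both lines of AT2G37510 dip in replicates 3 and 4, and both lines of AT1G01080 climb from replicates 1 and 2 to replicates 5 and 6.

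The level by pair separated the genes in another way. AT1G01080 differed far more between pairs than between genotypes: its deposited pair averages were 0.150, 0.272 and 0.567 in WT and 0.247, 0.354 and 0.485 in toc160, in the order of replicates 1 and 2, 3 and 4, and 5 and 6. Averaged over the genotypes, its normalized level spanned 1.24 on the log2 scale between pairs. The SD between pairs was 0.62, at the 95.8th percentile of the 691 loci, whose median was 0.22. Arrays of the same pair differed much less, with an SD of 0.09. What distinguished the pairs is not in the labels. The light-harvesting gene LHB1B2 fell over the same pairs in WT, from 15.4 to 8.34 and 3.43, where AT1G01080 rose. In toc160 LHB1B2 stood at 1.94, 2.03 and 1.58. Whether the shifts of these genes are related was not tested.

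AT2G37510 was the other gene with a sizeable shift between pairs, with an SD of 0.32 (73.8th percentile) and its lowest level in replicates 3 and 4 of both genotypes. AT3G46950 had an SD of 0.20 and was lowest in replicates 5 and 6. The PPR genes were steadier, at 0.10 for AT3G13150, 0.09 for AT2G19280 and 0.02 for AT4G04370 (18.2nd, 15.3rd and 5.64th percentile). For AT3G13150 the small value hides opposite shifts in WT and toc160, as described above. In 5 of the 6 genes the genotype difference had the same sign in all 3 pairs, as it did in 49.5% of all loci. Since the genes were picked on this comparison, agreement in sign was favoured in advance, and nothing is read from this count.

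**Figure D4:**
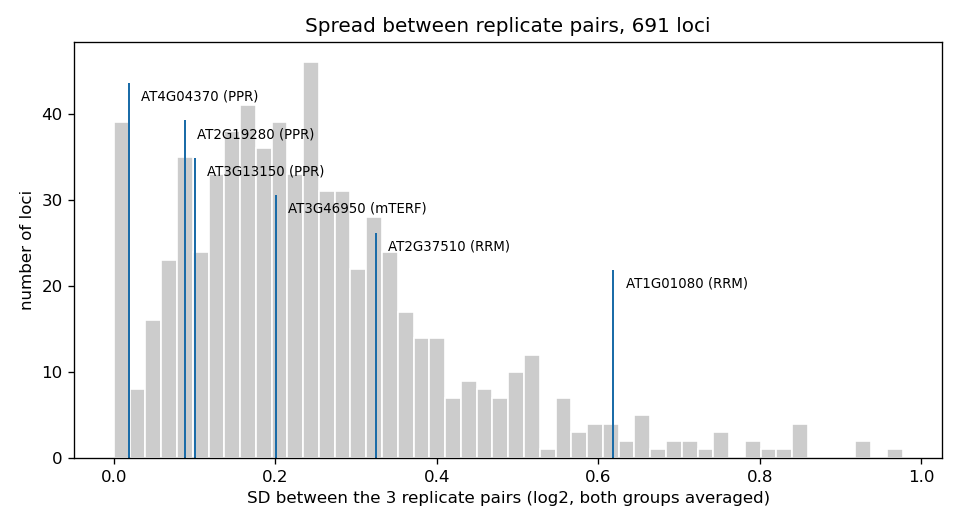
Histogram of the SD between the 3 replicate pairs (log2 scale, levels averaged over WT and toc160) for the 691 loci, with the 6 genes marked by vertical lines. AT4G04370 lies at 0.02 near the low end and AT1G01080 at 0.62 in the upper tail.

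Profiles over the 12 arrays grouped the genes by these differences, and are given as descriptions of 12 arrays that form 6 near-duplicate pairs. AT2G19280 and AT2G37510 resembled each other (Pearson r 0.915), and r was still 0.786 after each genotype's mean was removed. AT3G13150 and AT3G46950 had an r of 0.810, or 0.467 within genotypes. AT3G46950 ran opposite to AT2G37510 (-0.875) and to AT2G19280 (-0.864). Within genotypes these were -0.636 and -0.448. AT1G01080 had an r between -0.19 and 0.04 with each of the other 5, and within genotypes between -0.518 (AT3G46950) and 0.249 (AT4G04370).

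Of 516 other loci bright enough to compare, the one most like AT2G37510 was AT4G25290, with an r of 0.984 (0.958 within genotypes), followed by AT2G19280 and AT1G72640 (0.904). AT2G19280 was most like AT2G37510, AT4G25290 (0.894) and AT3G18870 (0.890). AT3G46950 was closest to AT5G52530 (0.924), CUTA (0.897) and AT4G31530 (0.894). All were lower in toc160, which the ranking favours, since r here includes the genotype difference. AT3G13150 was closest to AT4G19900 (0.843), AT5G06990 (0.822) and AT5G52530 (0.817). The loci nearest to AT4G04370 were CYN (0.849), AT4G17440 (0.820) and NdhS (0.818), and the likeness to NdhS was gone within genotypes (-0.10). For AT1G01080 they were AT1G19490 (0.951), AT1G55440 (0.950) and AT5G19050 (0.943), and these values were 0.955, 0.951 and 0.979 within genotypes.

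Few of the loci listed here for organelle RNA metabolism had a probe naming 1 gene. The lists were written by hand and do not cover whole families. Further family members among the 691 loci were therefore not counted. Of 94 loci listed for PPR, mTERF, plastid RRM, MORF and CRM proteins, RNases, polymerases and the plastid-encoded polymerase complex, 5 were measured. In the fit of 6 arrays against 6, 1 of the 5 passed (lower), where 10.4% of all loci passed and 5.50% passed lower. With so few genes, nothing is read from that count. The gene that passed was AT4G09620, listed here as an mTERF gene. Its intensity was 1.17, 1.36 and 1.77 in WT and 0.954, 1.12 and 1.22 in toc160, and its log2 difference was -0.53 (SE 0.09, limma adjusted p 0.00222). Median centring (-0.66), cyclic loess (-0.54) and the deposited values (-0.33) gave the same call. The pair ratios were -0.23, -0.67 and -0.67. The pair-blocked fit did not call AT4G09620 over all loci (limma adjusted p 0.140). It did without the dimmest 25%, where 21.4% of the remaining loci passed.

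The other 4 listed genes did not pass. The second mTERF gene, mTERF9 (AT5G55580), had a log2 difference of -0.38 (SE 0.18, limma adjusted p 0.243). With replicate numbers as a block, which counts near-duplicate arrays as separate, its limma adjusted p was 0.0360, where 28.4% of all loci passed. It also passed in the pair-blocked fit without the dimmest 25%, as did 21.4% of the loci in that fit. CRR21, a PPR protein needed for editing of a plastid ndh transcript, had a difference of 0.05 (SE 0.17). AT3G22690, listed as a PPR gene, had one of 0.21 (SE 0.12), and AT4G09040, listed as an RRM gene, one of 0.06 (SE 0.15). As deposited AT3G22690 passed (0.63, limma adjusted p 0.00543). Found by symbol once the probe names were known, the PPR genes OTP70 (-0.16, SE 0.15) and OTP85 (0.05, SE 0.12) did not pass either, though OTP85 did as deposited (0.45, limma adjusted p 0.00677). In that fit of 6 deposited arrays against 6, 42.3% of all loci passed, 38.5% with toc160 higher. The median locus was 0.33 higher in toc160. Of the listed leaf photosynthesis genes 1 of 12 was measured (LHB1B2, which fell by 1.90 on the log2 scale, limma adjusted p 0.00527, or 0.109 over all loci with the pair block), and of the seed storage genes 0 of 8, so the tissue was not checked further.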

How the data were processed

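The authors deposited a linear intensity for every probe on every array, between 0 and 100. Their background correction and scaling are not given in the sources used here. A platform annotation named 1 gene for 692 of 3439 probes, several for 870 and none for 1877, and only the first were used. Of them, 690 matched the TAIR10.1 gene table. Averaging probes of 1 locus left 691 loci. Values below the 1st percentile of positive intensities (0.0364) were raised to it, log2 transformed and quantile normalized over all probes. Loci were fitted with limma 3.58.1 (R 4.3.3), 6 arrays against 6, as a two-sided test at a Benjamini-Hochberg adjusted p of 0.05. The scripts were tested on simulated data.

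Members, gene lists and tests were chosen with earlier results of these data known. Named genes are the 6 members, the 3 loci most correlated with each, and measured members of 10 lists holding 114 loci; a search for relatives by protein sequence was not made, as no sequences were used here.

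Replicate numbers pair the samples, from the data and not the labels: after subtracting group means, the WT and toc160 arrays of each of the 6 numbers had an r of 0.518 to 0.722. Array number limits the precision. Alternatives were other scalings, log2(value + 0.1), removal of the dimmest 25% of loci, blocks, pair averages and omitted arrays.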

Additional observations from a re-analysis of the deposited data

How the results depend on the processing

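Across 27 alternatives the direction held for 5 of the 6 genes. AT1G01080, which never passed, changed sign as deposited (0.30, also with the pair block), without replicates 5 and 6 (0.085) and without WT replicate 5 (0.048) or 6 (0.050). The number of called loci (72) was 292 as deposited, 196 with the replicate block, 3 on pair averages without a block, 12 with the pair block and 111 with it but without the dimmest 25%. Added after the data were seen, the pair block gave 256 as deposited, 70 with median centring and 21 with cyclic loess. The number of the 6 genes called (5) was 2 with median centring, with or without the pair block, 3 with cyclic loess (1 with the block), 0 and 1 on pair averages without and with the block, 4 with the block as deposited or without the dimmest 25%, and 1, 3 and 3 without replicates 1 and 2, 3 and 4, and 5 and 6, where 55, 51 and 72 of all loci were called. Leaving out 1 array gave 57 to 71 loci and 4 to 5 genes.

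Calls were lost as follows, with the log2 difference in brackets. AT3G13150: replicate block and pair averages with or without block over all loci (-0.49), pair block as deposited (-0.66) or with cyclic loess (-0.64), without replicates 1 and 2 (-0.57) or 3 and 4 (-0.24), and without toc160 replicate 3 (-0.44), 4 (-0.45) or 6 (-0.49). Leaving out any other single array kept its call, and over all 12 such omissions its log2 difference ran from -0.55 to -0.42. AT4G04370: pair averages and removal of the dimmest 25%, alone or with the pair block (0.14), median centring (0.077, also with the pair block), cyclic loess (0.12, also with the pair block), without replicates 1 and 2 or 5 and 6 (0.12). AT2G19280: pair averages over all loci (0.54), median centring with or without the pair block (0.21), pair block with cyclic loess (0.47). AT3G46950: as deposited without a block (-0.26), unblocked pair averages (-0.59), without replicates 1 and 2 (-0.60) or 3 and 4 (-0.56). AT2G37510: pair averages over all loci (0.71), median centring (0.24) and cyclic loess (0.58) with or without the pair block, without replicates 1 and 2 (0.61) or 5 and 6 (0.79). Single arrays moved AT1G01080 between -0.29 and 0.05. The causes were not tested; settings with pair averages or fewer pairs hold fewer samples.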

Other observations

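Probes that name a member together with other genes were left out of the comparison, and their values are given for the probe alone; they were chosen after the annotation was read. The probe listed for AT3G46950, AT1G62490, AT1G61990 and AT1G61960 had a deposited intensity of 0.682, 0.785 and 1.35 (lowest, median, highest) in WT and 0.947, 1.08 and 1.51 in toc160. Its normalized log2 difference was 0.11 (SE 0.15, limma adjusted p 0.765 over all 3439 probes, of which 15.4% passed), where the probe of AT3G46950 alone had -0.59. Within genotypes the profiles of these probes over the 12 arrays had an r of -0.767. AT1G61990, also listed for the shared probe, had a log2 difference of 0.14 (SE 0.09) when named alone. Which of the listed genes the shared probe reads was not tested.

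The probe listed for AT1G60000 and AT1G01080 had an intensity of 0.425, 0.602 and 0.712 in WT and 0.481, 0.583 and 0.877 in toc160. Its log2 difference was -0.18 (SE 0.20, limma adjusted p 0.668), and its profile within genotypes had an r of -0.639 with the probe of AT1G01080 alone. The probe listed for AT1G73530, AT5G54580 and AT2G37510 is listed at 0 on all 12 arrays, although the probe of AT2G37510 alone had an intensity of at least 2.15 on every array.

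Within 3 probe numbers of AT2G19280 lay 1 probe with a mean intensity of 5.57 and a log2 difference of -0.66, opposite in sign to that gene. The other probes measured within that distance had the sign of the gene, with log2 differences of 0.08, 1.08, 0.27 and 0.28. The one at 1.08 was dim, with a mean intensity of 0.155. Around AT3G13150, which was lower, the measured probes had 0.27, 0.22, 0.27 and 0.43, all opposite in sign to that gene. Around each of the remaining genes both signs occurred. Whether position bears on the values was not tested.

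Of 28 groups of 6 arrays checked for a single array apart from the rest (the 6 genes and 8 other genes described, in both genotypes), 0 held one. Each array has a near-duplicate in its group, so this check was close to void.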
